A study of Mus musculus with 6 samples.

Results

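The genes of the blood vessel wall were followed in the whole inner ear of wild-type and Pou3f4 mutant mice by bulk RNA sequencing. They comprise 34 genes of 55401 in the deposited count table, chosen by symbol: 16 genes of endothelial identity, 4 transporters of the blood-labyrinth barrier, 9 pericyte genes and 5 smooth muscle genes. Each symbol matched 1 row of the table, and each gene was tested. The study compared wild-type ears (WT, 3 libraries) with ears of mice whose genotype is labelled Pou3f4y/- (Pou3f4 KO, 3 libraries), and its stated aim concerns pigmentation. The labels name no agent and give no age, sex, strain or description of the mutant allele. The material is labelled as all cells of the inner ear, so vessels are a part of a mixed tissue. In such samples fewer cells of a type and less RNA per cell cannot be told apart.

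Inner ear vessels carry oxygen to a tissue with a high energy demand, above all to the stria vascularis, where melanocyte-derived intermediate cells lie among dense capillaries. Endothelial cells line every vessel and are held together by vascular endothelial cadherin. Where a barrier is needed, they close their junctions, suppress vesicle transport and display nutrient carriers and efflux pumps. Pericytes wrap capillaries inside the basement membrane, and smooth muscle cells coat arterioles and arteries.

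Library totals ranged from 18409409 to 23323953 counts, and the lowest count of any of the 34 genes in a library was 19, for Higd1b. Levels are given in CPM, counts divided by the library size as scaled by the TMM method of edgeR and multiplied by 1e+06. Pou3f4 matched the genotype labels, at 58.2, 111 and 113 CPM in WT replicates 1 to 3 and 1.96, 1.22 and 1.62 CPM in KO replicates 1 to 3. Transcripts that mark the inner ear were present in every library, with at least 3637 counts of Coch and 251 of Myo7a. Xist was present in WT replicates 1 and 2 and KO replicates 2 and 3 and nearly absent from the others, so 2 of the KO libraries held Xist although the genotype is written as hemizygous. WT replicate 1 stood apart. It was the highest of the 6 libraries for 19 of the 34 genes and the lowest for 4, against 28.8% and 29.6% of the 19687 genes tested. The median coefficient of variation of the 34 genes was 22.0% in WT and 6.80% in KO, against 17.3% and 7.69% over all genes tested. Nothing in the labels tells if the libraries are from separate animals, and so the p-values measure only the spread between these libraries, part of which may be technical.

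None of the vascular genes passed the threshold of the edgeR quasi-likelihood test, an adjusted p of 0.05 over all genes tested. The count was 0 of 34, while 0.396% of all genes tested passed, 0.213% higher and 0.183% lower in KO. At an unadjusted p under 0.05 the count was 0 higher and 13 lower in KO, which is 38.2% of the genes lower. Of all genes tested 19.6% had such a p, 8.71% higher and 10.9% lower. The CPM ranges of the genotypes did not overlap for 13 genes, each lower in KO, also 38.2% of the list, against 27.7% of all genes tested, 12.7% lower and 15.0% higher. DESeq2 called 8 of the 34 genes lower and 0 higher. That is 23.5% of the list lower, against 7.76% of all genes with that tool, 4.77% lower and 2.98% higher. The 8 were Vwf, Slc2a1, Rgs5, Abcc9, Kcnj8, Myh11, Tagln and Des. Without WT replicate 1 edgeR called 1 gene higher and 8 lower, while 9.06% of all genes were called, 3.60% higher and 5.46% lower. Without WT replicate 2 it called 0 higher and 4 lower, while 3.78% of all genes were called, 1.41% higher and 2.37% lower. Without any 1 of the other libraries 0 of the 34 were called, but in those fits 0 genes of the whole table were called. Genes of the list share cells and are not independent. The fitted changes, given as log2 fold changes of KO over WT, had a median of −0.30 over the 34 genes and −0.01 over all genes tested. Medians differed by role, at −0.02 for endothelial identity, −0.38 for barrier transporters, −0.33 for pericyte genes and −1.69 for smooth muscle genes.

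**Figure D1:**
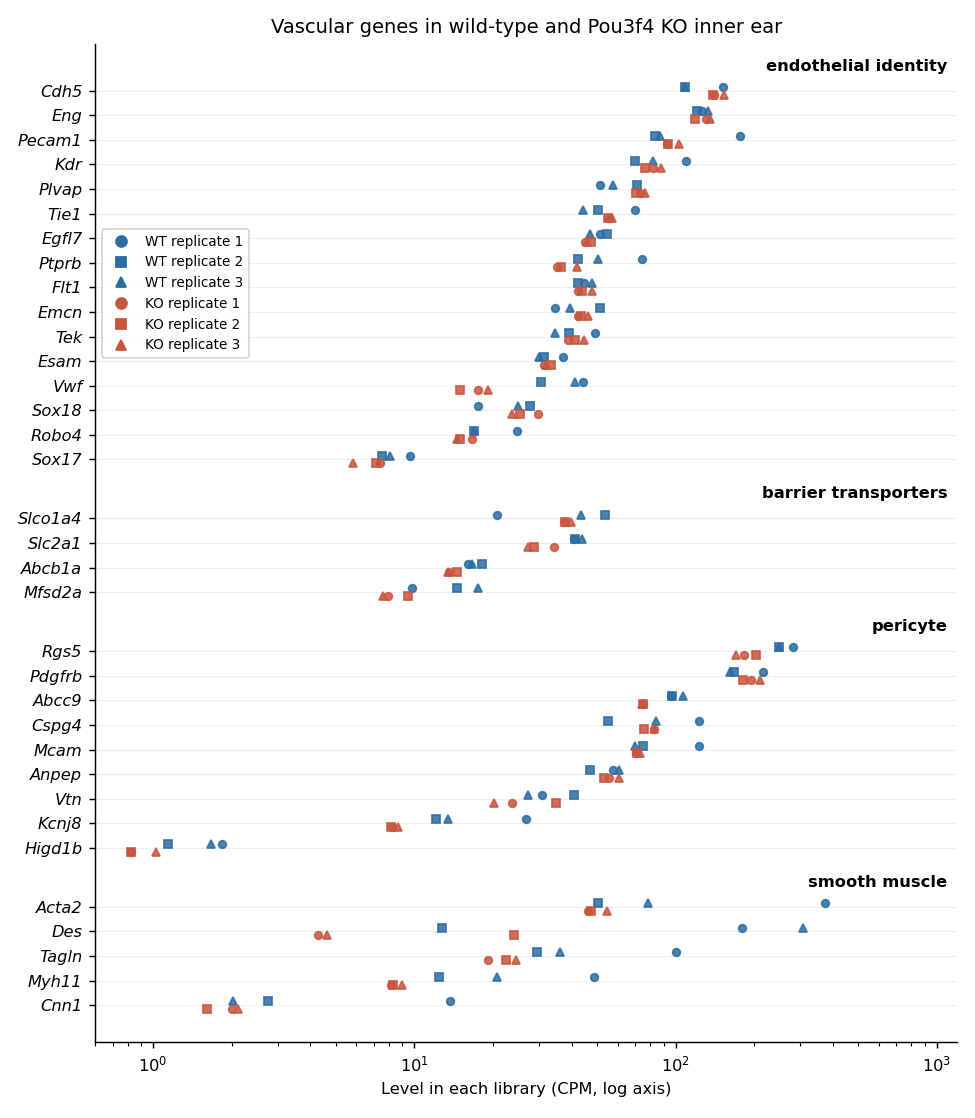
Level of each of the 34 genes (CPM, log axis) in the 6 libraries, by role, with WT in blue and KO in red and the replicate number as the marker shape. Most endothelial genes have overlapping genotypes, while Vwf, Rgs5, Abcc9, Kcnj8 and Myh11 have all KO points to the left of all WT points, and WT replicate 1 lies far to the right for Acta2 at 375 CPM.

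**Figure D2:**
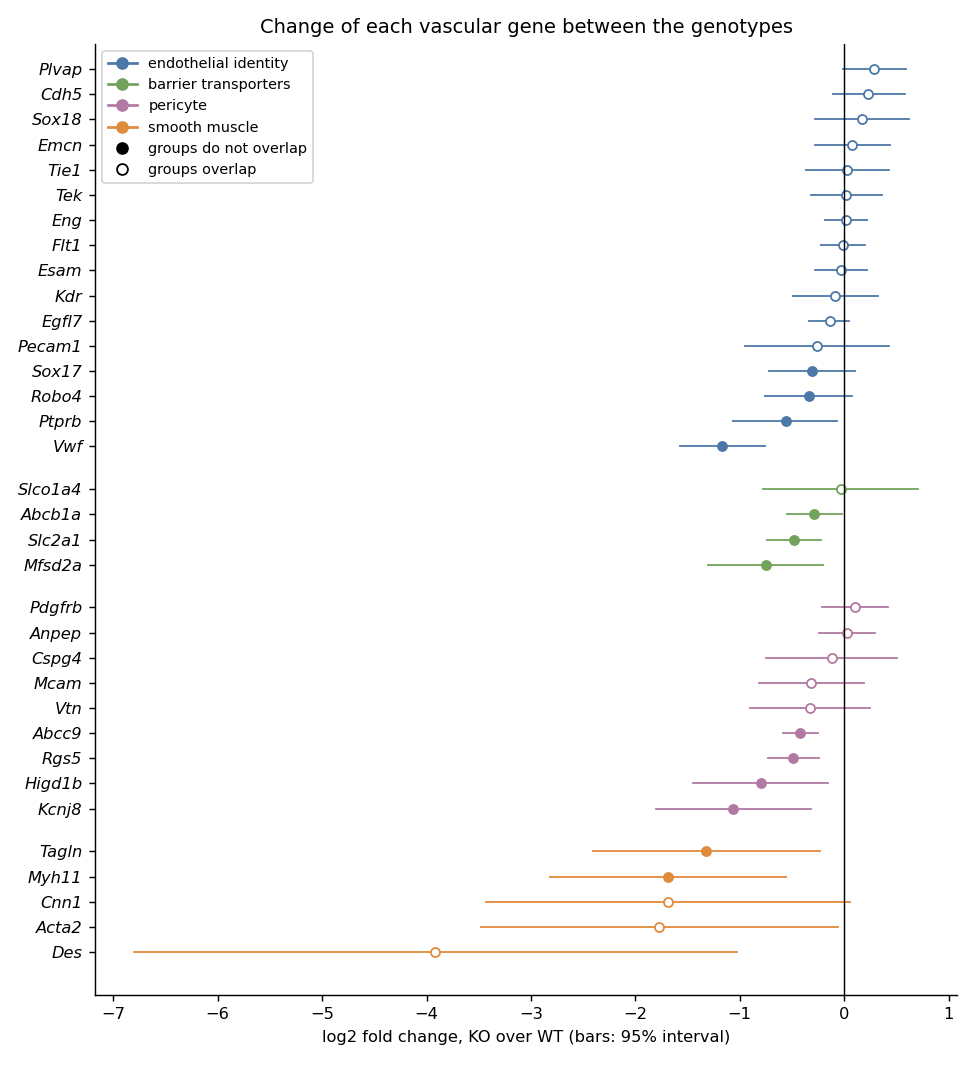
Fitted log2 fold change of each gene, KO over WT, from edgeR, with bars for the 95% interval and filled points where the CPM ranges of the genotypes do not overlap. Most endothelial intervals span 0, and the 5 smooth muscle genes have the most negative estimates and the widest intervals.

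Endothelial identity transcripts had a similar summed level in both genotypes, which does not give the number of endothelial cells. The part of other cells in these sums was not tested. The summed level of the 16 endothelial identity genes was 1072, 849 and 853 CPM in WT against 882, 863 and 936 CPM in KO, so the groups overlapped. For 14 of the 16 genes the 95% interval of the change lay within 2-fold in either direction, the exceptions being Vwf and Ptprb. With edgeR 0 of the 16 genes were called, where only 0.396% of all genes tested passed, so this count says little about the list. Vwf and Ptprb had an unadjusted p under 0.05, both lower in KO. These 2 genes are a share near the 10.9% of all genes lower at that p. Per kilobase of exon, Plvap, Cdh5 and Eng had the highest levels over the 6 libraries, at 33.6, 31.9 and 31.5 CPM per kilobase, and the transcription factor Sox17 the lowest at 1.59.

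Among the junction proteins, Cdh5, the vascular endothelial cadherin, was at 152, 109 and 109 CPM in WT replicates 1 to 3 and at 141, 139 and 154 CPM in KO replicates 1 to 3. WT replicate 1 lay with the KO libraries and the other WT libraries lay below them. The fitted change was 0.23 (SE 0.15, adjusted p = 0.417, edgeR). Without WT replicate 1 Cdh5 was the only one of the 34 genes called higher, at 0.40 (SE 0.07, adjusted p = 0.0258), where 3.60% of all genes were called higher. The platelet-endothelial adhesion molecule Pecam1 was at 176 CPM in WT replicate 1 and at 83.5 to 103 CPM in the other 5 libraries. Esam, an adhesion molecule of endothelial tight junctions, averaged 32.9 ± 3.63 CPM in WT against 32.2 ± 0.996 CPM in KO (SD over 3 libraries, as for all such values).

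The receptors of the vascular growth factors differed little. Kdr, the main signalling receptor for VEGF-A, averaged 87.3 ± 20.9 CPM in WT against 82.2 ± 5.60 CPM in KO. Flt1, a VEGF receptor that also acts as a trap for the ligand, had a change of −0.01 and a 95% interval of −0.22 to 0.20. The angiopoietin receptor Tek averaged 40.9 ± 7.55 and 41.5 ± 2.99 CPM, and its partner receptor Tie1 at 54.9 ± 13.4 and 56.1 ± 1.04 CPM. Endoglin, Eng, a coreceptor for BMP9 and TGF-beta ligands, was at 126, 121 and 133 CPM in WT against 131, 119 and 135 CPM in KO. The genotypes overlapped, with a change of 0.02 (95% interval −0.18 to 0.22).

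The remaining surface and nuclear genes of the endothelium had fitted changes of both signs. Plvap, which forms the diaphragms of fenestrae and caveolae and is low in barrier endothelium, was at 51.4, 71.3 and 57.4 CPM in WT against 73.2, 70.5 and 76.4 CPM in KO. KO replicates 1 and 3 lay above the highest WT value and KO replicate 2 just below it, with a change of 0.29 (SE 0.13, adjusted p = 0.268, edgeR). Ptprb, the phosphatase that restrains Tek signalling, was at 74.2, 42.4 and 50.7 CPM in WT against 35.1, 36.4 and 42.0 CPM in KO. Its ranges met without overlap, and the estimate of −0.56 (adjusted p = 0.211) was −0.31 without WT replicate 1. The guidance receptor Robo4 and Sox17, a factor of arterial endothelium, also had lower ranges in KO without overlap, with changes of −0.34 and −0.31. Exons of Sox17 are overlapped over 16.8% by Gm37587 on the opposite strand, but that model held only 11 counts in all libraries together. Sox18, at 23.4 ± 5.26 and 26.3 ± 3.09 CPM, the sialomucin Emcn, at 41.7 ± 8.72 and 44.1 ± 1.99 CPM, and the secreted Egfl7, at 51.1 ± 3.76 and 46.2 ± 1.27 CPM, overlapped between genotypes. Egfl7 shares 7.4% of its exon length with the same-strand model Gm20532, which held 3897 counts against 5884 for Egfl7, so part of its count may be shared.

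Von Willebrand factor had the largest fitted change of the endothelial identity genes. Vwf (ENSMUSG00000001930, mm10 chromosome 6, 125546774 to 125686679, plus strand) encodes the clotting glycoprotein that endothelial cells and megakaryocytes store and release. It was at 44.4, 30.6 and 41.3 CPM in WT replicates 1 to 3 and at 17.5, 15.0 and 19.2 CPM in KO replicates 1 to 3. Every KO library lay far below every WT library. The fitted level was 2.25-fold lower in KO (−1.17, SE 0.17, 95% interval −1.57 to −0.76), and the adjusted p of 0.0556 with edgeR was above the threshold. DESeq2 called it (adjusted p = 4.01e-07), and so did edgeR without WT replicate 1 (0.0186), without WT replicate 2 (0.026) and without a filter on low counts (0.0372). Over the 14 alternative fits the adjusted p was highest, 0.357, without KO replicate 1, and the change lay between −1.31 and −1.08. Relative to the summed CPM of the other endothelial identity genes, Vwf made up 4.32%, 3.74% and 5.08% in WT and 2.02%, 1.78% and 2.10% in KO, without overlap. The same share did not overlap for Ptprb either, at 7.44%, 5.26% and 6.32% in WT against 4.14%, 4.40% and 4.70% in KO. Cdh5 went the other way without overlap, at 16.5%, 14.7% and 14.6% in WT against 19.0%, 19.2% and 19.8% in KO. For Plvap the share overlapped, and it was not computed for the other genes of the list. Vwf and Ptprb already had CPM ranges that lay apart, so their shares are no separate support for lower levels. The 6 markers of megakaryocytes and platelets, cells that also make Vwf, summed to 67.1, 147 and 178 CPM in WT against 130, 108 and 96.5 CPM in KO, with 6 of 6 fitted changes below 0 and a median of −0.19. The sums overlapped and the 95% interval of each marker spanned 0. One marker, Gp1bb, shares 91.1% of its exon length with the same-strand gene Sept5, which held 11476 counts against 3263, so its count may be shared. No marker was at 0. The part of these cells in the Vwf result was not tested.

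Nutrient carriers and efflux pumps of the barrier were lower in KO in 3 of 4 cases by range, though none passed with edgeR and 3 had an unadjusted p under 0.05, against 12.7% of all genes tested lower by range and 10.9% lower at that p. The summed level of the 4 genes was 87.5, 127 and 121 CPM in WT against 93.3, 90.6 and 88.0 CPM in KO. WT replicate 1 lay below the KO libraries in that sum, so the groups overlapped. Slc2a1, the glucose transporter GLUT1 of barrier endothelium, was at 40.9, 41.2 and 44.0 CPM in WT against 34.3, 28.8 and 27.3 CPM in KO. The WT libraries were even and each lay above every KO library. The fitted level was 1.39-fold lower in KO (−0.48, SE 0.11, adjusted p = 0.115 with edgeR, 0.0163 with DESeq2, and 0.0433 with edgeR without WT replicate 1). Red cells can also carry this transporter, and the 7 red cell markers summed to 2024, 7861 and 6924 CPM in WT against 2088, 2589 and 3352 CPM in KO, with 7 of 7 fitted changes below 0. No marker was at 0, the sums overlapped between genotypes, and the part of red cells in the Slc2a1 result was not tested.

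Mfsd2a, the lysolipid carrier that also holds down vesicle transport in brain endothelium, was at 9.81, 14.6 and 17.5 CPM in WT against 7.95, 9.44 and 7.56 CPM in KO. WT replicate 1 lay just above the KO libraries. The change was −0.75 (SE 0.23, adjusted p = 0.17, edgeR), and −0.96 without WT replicate 1, where the adjusted p was 0.0209. Abcb1a, the efflux pump P-glycoprotein, averaged 17.0 ± 1.03 CPM in WT against 13.9 ± 0.583 CPM in KO (−0.29, adjusted p = 0.227). Its exons overlap Gm42686 on the opposite strand over 10.1%, and that model held 271 counts against 1864. Slco1a4, an organic anion carrier of barrier vessels, was at 20.7, 53.6 and 43.3 CPM in WT against 37.4, 37.8 and 39.7 CPM in KO. WT replicate 1 was the lowest of the 6 libraries and WT replicates 2 and 3 the highest, and the estimate of −0.03 had a 95% interval from −0.78 to 0.71. The estimate was negative, −0.35, without WT replicate 1 (adjusted p = 0.0704) and positive, up to 0.26, in 3 of the 14 alternative fits.

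Pericyte genes split into some that were even between the genotypes and some that were lower in KO. The summed level of the 9 genes was 957, 746 and 776 CPM in WT against 694, 705 and 702 CPM in KO, without overlap. Rgs5 alone gave 282, 249 and 250 CPM of this in WT against 183, 204 and 171 CPM in KO. The gap between the sums rests on that gene and does not show a fall of the whole list. With edgeR 0 passed, 4 had an unadjusted p under 0.05 and 4 had ranges that did not overlap, all lower in KO, and DESeq2 called 3 of them lower. Among all genes 10.9% were lower at that p, 12.7% were lower without overlap and DESeq2 called 4.77% lower. As a share of the summed endothelial level, the pericyte sum was 89.2%, 87.9% and 91.0% in WT and 78.7%, 81.7% and 75.0% in KO. Pericytes are recruited through the PDGF receptor beta, Pdgfrb, which was at 216, 168 and 162 CPM in WT against 194, 182 and 210 CPM in KO. Its values overlapped, with a change of 0.10 (95% interval −0.21 to 0.42). The peptidase Anpep averaged 55.2 ± 7.09 and 56.5 ± 3.84 CPM, and the proteoglycan NG2, Cspg4, spanned 55.4 to 123 CPM in WT and 75.9 to 83.1 CPM in KO. Fibroblasts and bone cells also express Pdgfrb and Cspg4, and myeloid cells Anpep, so these genes are not restricted to pericytes. The 6 fibroblast and bone markers had 5 of 6 fitted changes above 0, with sums of 7417 to 7769 CPM in WT against 8093 to 8316 CPM in KO. The 7 myeloid markers had 6 of 7 above 0, with sums of 464 to 1033 and 1141 to 1244 CPM. No marker of either list was at 0, and their part in the pericyte result was not tested.

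Rgs5, a regulator of G-protein signalling that marks pericytes, had the highest level per kilobase of the pericyte genes (49.0 CPM per kilobase over the 6 libraries). It was at 282, 249 and 250 CPM in WT against at 183, 204 and 171 CPM in KO. All KO libraries lay below all WT libraries. The fitted level was 1.40-fold lower in KO (−0.49, SE 0.10, adjusted p = 0.0986 with edgeR and 0.00194 with DESeq2). Without WT replicate 1 the change was −0.44 (adjusted p = 0.036, edgeR).

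The subunits of the vascular ATP-sensitive potassium channel both had lower ranges in KO without overlap. This channel couples the energy state of the mural cell to vessel tone, with Kcnj8 (Kir6.1) as the pore and Abcc9 (SUR2) as the regulatory sulfonylurea receptor. Abcc9 (ENSMUSG00000030249, mm10 chromosome 6, 142587862 to 142702315, minus strand) was at 96.5, 97.1 and 107 CPM in WT against 74.9, 75.3 and 74.7 CPM in KO. The KO libraries were nearly identical and each lay below every WT library. The fitted level was 1.34-fold lower (−0.42, SE 0.07, adjusted p = 0.0692 with edgeR and 0.00111 with DESeq2), and edgeR called it without WT replicate 1 (0.0186) and without WT replicate 2 (0.0462). Kcnj8 (ENSMUSG00000030247, chromosome 6, 142564837 to 142571614, minus strand) was at 26.8, 12.1 and 13.5 CPM in WT against 8.25, 8.18 and 8.64 CPM in KO. WT replicate 1 was at 2.10 times the mean of the other WT libraries, and the KO libraries were even. The fitted level was 2.09-fold lower (−1.06, SE 0.31, adjusted p = 0.161 with edgeR and 0.0189 with DESeq2). Without WT replicate 1 the change was −0.63 (SE 0.12, adjusted p = 0.0313, edgeR).

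The channel genes lie beside each other on the same strand, 16247 bases apart, with 0 annotated protein-coding genes between them. Their sequences before the start of transcription (RefSeq, GRCm38.p6, minus strand) are shown because these neighbours both had lower estimates. The first is chr6:142571615-142571864, positions −250 to −1 from the start, and the second is chr6:142702316-142702524, positions −250 to −42, ending where an annotated exon begins. No letter is in capitals, since no CArG box, the smooth muscle element described below, was found in either.
Kcnj8: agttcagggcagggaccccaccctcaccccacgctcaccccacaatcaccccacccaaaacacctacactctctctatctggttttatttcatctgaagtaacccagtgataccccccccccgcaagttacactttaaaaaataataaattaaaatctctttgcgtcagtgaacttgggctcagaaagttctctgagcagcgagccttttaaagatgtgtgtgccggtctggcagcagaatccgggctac
Abcc9: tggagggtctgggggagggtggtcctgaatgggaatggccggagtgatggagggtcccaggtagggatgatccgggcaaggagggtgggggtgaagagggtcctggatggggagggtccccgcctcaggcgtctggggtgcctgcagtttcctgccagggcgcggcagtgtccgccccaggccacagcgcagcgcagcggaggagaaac
The stretch of Kcnj8 had 49.2% G and C and 6 CpG pairs, and that of Abcc9 68.4% and 10. The POU octamer ATGCAAAT, searched on both strands, occurred in 0 of the 24 upstream windows of 250 bases found for 22 of the 34 genes, against 1.6% of 32851 such windows of all genes. That says only that these letters are not in these windows.

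**Figure D3:**
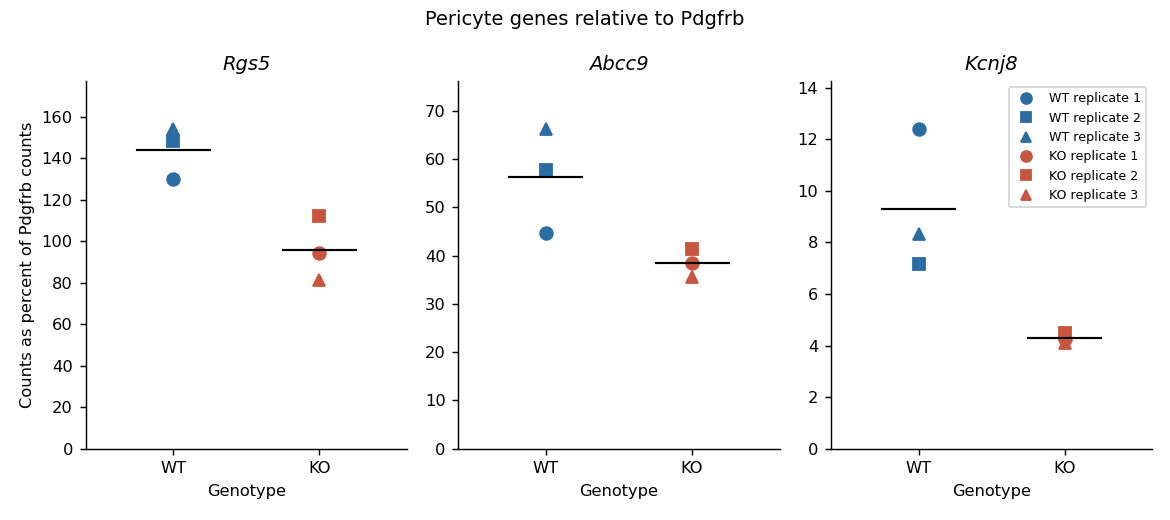
Counts of Rgs5, Abcc9 and Kcnj8 as a percent of the Pdgfrb counts of the same library, in WT (blue) and KO (red), with a line at the mean of 3 libraries and the replicate number as the marker shape. Each ratio is lower in every KO library than in every WT library, and Kcnj8 spans 7.17% to 12.4% in WT against 4.11% to 4.50% in KO. The genes shown are the pericyte genes that DESeq2 called lower.

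Taken against Pdgfrb in the same library, a measure that does not depend on library scaling, Rgs5, Abcc9 and Kcnj8 were lower in every KO library. These are the pericyte genes that DESeq2 called lower, and Pdgfrb had an estimate above 0 (0.10). The ratios are therefore no separate support for lower levels. Pdgfrb is also expressed by fibroblasts and bone cells, whose marker sums were higher in KO, as given above. Rgs5 counts were 130%, 148% and 154% of Pdgfrb counts in WT and 94.1%, 112% and 81.1% in KO, without overlap. Abcc9 counts were 44.7%, 57.7% and 66.2% in WT and 38.5%, 41.4% and 35.5% in KO. The plot of the 3 ratios shows the groups apart for each gene. These are ratios of counts, not of levels per length, and only their difference between libraries can be read.

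The other pericyte genes were less clear. Higd1b, a mitochondrial protein of brain pericytes, was the least abundant, at 1.55 ± 0.363 CPM in WT against 0.892 ± 0.115 CPM in KO, with 19 counts in each KO library and 22 to 33 counts in WT. Its ranges did not overlap (−0.80, SE 0.27, adjusted p = 0.189, edgeR). Mcam, the adhesion molecule CD146, was at 123, 75.3 and 69.8 CPM in WT against 70.3, 71.5 and 73.3 CPM in KO. WT replicate 1 alone stood out, and without it the change moved from −0.32 to −0.03. Vitronectin, Vtn, averaged 33.0 ± 7.09 CPM in WT against 26.3 ± 7.67 CPM in KO and was the most variable pericyte gene within KO.

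Smooth muscle genes had the lowest fitted changes, and their WT levels differed widely between libraries. All 5 estimates were negative, 0 passed with edgeR, 4 had an unadjusted p under 0.05, and DESeq2 called Myh11, Tagln and Des lower, against 10.9% of all genes lower at that p and 4.77% called lower by DESeq2. The summed level was 718, 108 and 445 CPM in WT against 79.8, 104 and 94.8 CPM in KO. The group median of −1.69 was −0.59 without WT replicate 1. Acta2, smooth muscle actin and the main protein of the contractile filaments, was at 375, 50.6 and 78.7 CPM in WT against 46.1, 47.4 and 54.5 CPM in KO. WT replicate 1 held most of the WT signal, WT replicate 2 lay within the KO range, and the groups overlapped (−1.77, SE 0.72, adjusted p = 0.243, edgeR). The change was −0.41 without WT replicate 1.

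Myh11, the smooth muscle myosin heavy chain, was at 48.8, 12.4 and 20.8 CPM in WT against 8.12, 8.26 and 8.96 CPM in KO. All WT libraries lay above the KO libraries, and WT replicate 1 was the highest by far. The change was −1.69 (SE 0.47, adjusted p = 0.15 with edgeR and 0.00326 with DESeq2), and it was called without WT replicate 1 at a smaller size (−0.99, SE 0.22, adjusted p = 0.0448, edgeR). Tagln, the actin-binding protein SM22, was at 100, 29.5 and 36.1 CPM in WT against 19.2, 22.4 and 24.6 CPM in KO, also without overlap (−1.32, adjusted p = 0.192 with edgeR and 0.0242 with DESeq2, and −0.59 without WT replicate 1, adjusted p = 0.0495). Exons of Tagln are covered over 62.4% by Gm48529 on the opposite strand, which held 94.0% to 98.2% of the Tagln counts in each library. The use of strand in the counting is not given, so reads of this pair cannot be told apart. Calponin, Cnn1, was at 13.7, 2.76 and 2.03 CPM in WT against 2.00, 1.61 and 2.11 CPM in KO, again high in WT replicate 1 alone, with a change of −1.69 (adjusted p = 0.265, edgeR) that was −0.34 without that library.

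Desmin varied with skeletal muscle transcript. Des, an intermediate filament protein of smooth, cardiac and skeletal muscle and of some pericytes, was at 180, 12.8 and 308 CPM in WT against 4.30, 24.0 and 4.64 CPM in KO. The order of the libraries was the same as for the sum of 14 skeletal muscle markers, at 6790, 232 and 10823 CPM in WT against 79.3, 867 and 82.5 CPM in KO. Of these markers 13 of 14 had fitted changes below 0, with a median of −4.24, and none was at 0 in any library. The fitted change of Des was −3.92 (SE 1.21, 95% interval −6.80 to −1.03, adjusted p = 0.169 with edgeR and 0.0328 with DESeq2). Acta2, Myh11, Tagln and Cnn1 did not share that order, since WT replicate 3 had more skeletal muscle transcript than WT replicate 1 and less of each of these genes. The coding sequences of muscle actins are much alike, and how reads with several matches were counted is not given, so the level of Acta2 is uncertain where Acta1 is abundant. Acta1 was at 2301 CPM in WT replicate 1 and 3843 CPM in WT replicate 3, where Acta2 was at 375 and 78.7 CPM. Without Des the median of the group was −1.69 as well.

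**Figure D4:**
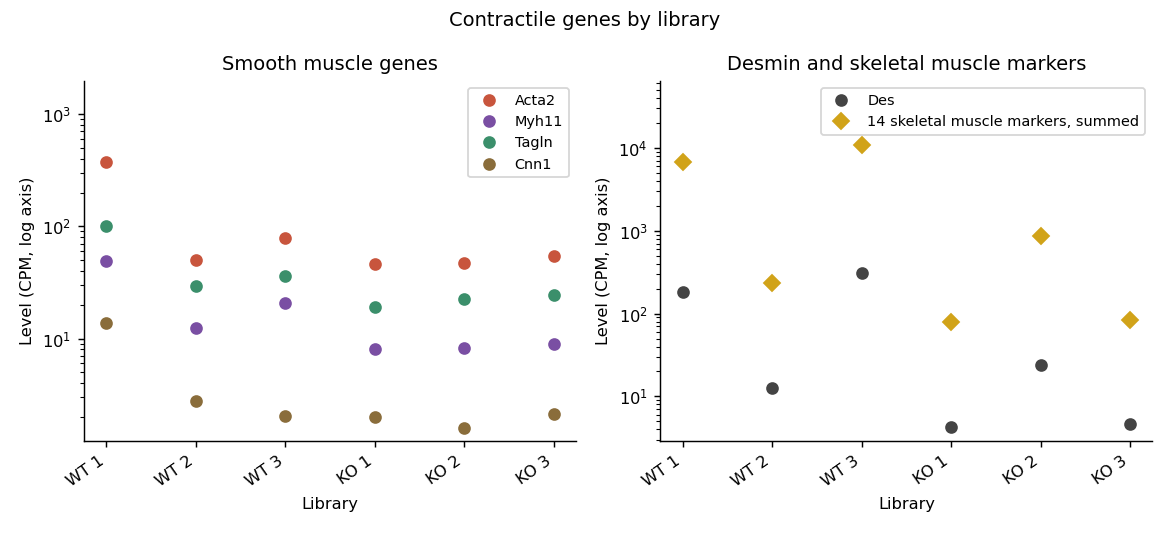
Level (CPM, log axes) of 4 smooth muscle genes in each library on the left, and of Des with the sum of 14 skeletal muscle markers on the right. WT replicate 1 is highest for each smooth muscle gene, whereas Des and the skeletal muscle sum are highest in WT replicate 3 and rise above the other KO libraries in KO replicate 2.

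Serum response factor drives contractile genes through the CArG box, a pair of C bases, an A/T-rich core and a pair of G bases. The box was searched with at most 1 G or C in its core, a rule that reads the same on both strands. It was found in 5 of the 24 windows of the vascular genes (20.8%) and in 8.59% of 32851 windows of all genes. The exact box, with only A and T in its core, was found in 0 of the 24 windows and in 1.47% of all windows. The window of Acta2 held 2 boxes, and the 2 other smooth muscle genes with a window, Des and Cnn1, held none. The other 4 windows with a box belonged to Egfl7, Eng, Kdr and Slco1a4. The Acta2 boxes (RefSeq, GRCm38.p6, minus strand) are shown in capitals with 10 bases on each side, because annotated exons cover 217 of the 250 bases of this window. The first is chr19:34255438-34255467, with the box from position −84, and the second is chr19:34255388-34255417, with the box from position −34.
Acta2 box 1: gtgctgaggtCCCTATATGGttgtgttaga
Acta2 box 2: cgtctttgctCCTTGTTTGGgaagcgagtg
A match is a run of letters and no evidence of binding. Srf itself averaged 29.9 ± 6.90 CPM in WT against 29.9 ± 1.43 CPM in KO, with a change of 0.00 (95% interval −0.41 to 0.42). Its coactivator Myocd held 3 to 14 counts per library and was not tested.

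The ligands that act on these cells had higher estimates in KO for some genes. Of 19 tested growth factors and partners, 0 passed with edgeR, 5 had an unadjusted p under 0.05 with a higher level and 2 with a lower level in KO, and DESeq2 called 3 higher, against 8.71% higher, 10.9% lower and 2.98% higher among all genes. The median change was −0.06. Angpt1, the angiopoietin that mural cells supply to activate Tek and stabilise vessels, was at 37.6, 46.2 and 42.1 CPM in WT against 62.0, 62.8 and 64.7 CPM in KO. The groups were well apart, with a 1.5-fold higher fitted level (0.59, SE 0.09, adjusted p = 0.0611 with edgeR and 0.000207 with DESeq2). Its exons overlap Gm17473 on the opposite strand over 14.2%, and that model held 621 counts against 6462. Angpt2, the context-dependent antagonist made by endothelial cells, was at 18.2, 18.6 and 20.2 CPM in WT against 31.7, 28.7 and 35.9 CPM in KO. It too was apart, 1.69-fold higher (0.76, SE 0.12, adjusted p = 0.0599 with edgeR and 3.71e-05 with DESeq2). Pdgfb, the endothelial ligand that attracts pericytes, was at 37.7, 37.5 and 36.9 CPM in WT against 45.6, 44.8 and 48.2 CPM in KO (0.31, SE 0.07, adjusted p = 0.125 with edgeR and 0.0433 with DESeq2). Bulk RNA does not show which cells made these ligands. The sums of the myeloid markers and of the fibroblast and bone markers were higher in KO, as given above. The part of those cells in the ligand levels was not tested. The receptors Tek and Pdgfrb overlapped between genotypes, as given above, and Angpt2 counts were 37.0% to 58.6% of Tek counts in WT and 70.0% to 81.5% in KO. Angpt2 already lay apart in CPM and Tek was near even, so this ratio is no separate support.

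**Figure D5:**
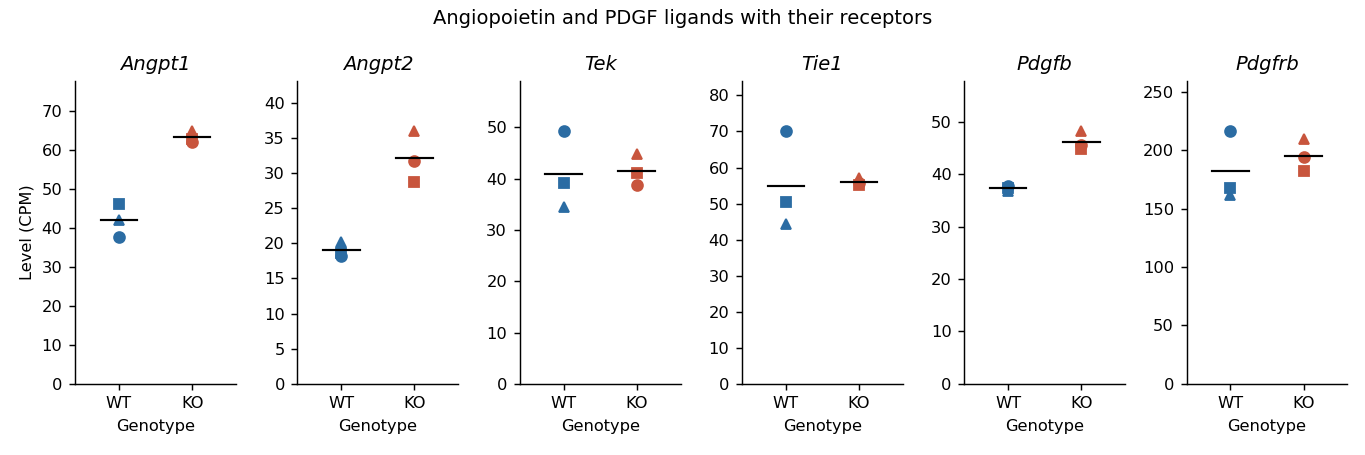
Level (CPM, axes from 0) of Angpt1 and Angpt2 with their receptor Tek and its partner Tie1, and of Pdgfb with its receptor Pdgfrb, in WT (blue) and KO (red), with a line at the mean of 3 libraries and circles, squares and triangles for replicates 1 to 3. The 3 ligands are higher in every KO library than in every WT library, with Angpt2 at 28.7 to 35.9 CPM against 18.2 to 20.2 CPM, and the 3 receptors overlap.

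Counts for other genes of the vessel wall are read against all genes tested, of which 0.183% passed with edgeR as lower, 8.71% were higher and 10.9% lower at an unadjusted p under 0.05, and DESeq2 called 4.77% lower. Of 25 further endothelial and barrier genes, 1 passed with edgeR and fell, and 18 had estimates below 0 (median −0.23). This was Slc7a5, the large neutral amino acid transporter LAT1 of barrier endothelium and many other cells, at 83.0, 82.5 and 81.1 CPM in WT against 58.9, 58.5 and 60.7 CPM in KO. The libraries of each genotype were nearly equal and the groups far apart, a 1.38-fold fall (−0.47, SE 0.06, adjusted p = 0.049, edgeR). The call was also made without WT replicate 1 (0.0113) and without WT replicate 2 (0.0333), and with DESeq2 (1.32e-05). It was also made under RLE and upper-quartile scaling, and with the filter of 1 CPM in 3 libraries. It was lost without a filter on low counts (0.0677), with the replicate block (0.226), with a term for Xist (0.152) and without any 1 of the other libraries (0.143 to 0.357), at changes of −0.48 to −0.45. Of 10 arterial, venous and lymphatic genes, 6 had estimates above 0 (median 0.17). With edgeR 0 passed (1 higher and 2 lower at an unadjusted p under 0.05, a share near that of all genes). Ranges did not overlap for 3 genes higher in KO and 1 lower, against 15.0% and 12.7% of all genes. DESeq2 called 2 of the 10 lower. They were Nr2f2, the factor of venous identity, which averaged 54.0 ± 12.1 CPM in WT against 34.2 ± 4.38 CPM in KO, and Lyve1, a hyaluronan receptor of lymphatic vessels and some macrophages. Lyve1 was at 36.6, 4.42 and 10.9 CPM in WT against 4.26, 4.61 and 4.80 CPM in KO, so WT replicate 2 lay within the KO range. Its change of −1.92 was −0.77 without WT replicate 1 (adjusted p = 0.211, edgeR). Of 19 tested further mural genes, 0 passed with edgeR (1 higher and 6 lower at an unadjusted p under 0.05), with a median of −0.20. DESeq2 called 1 of them, Rgs4, a relative of Rgs5 also expressed in neurons, at 40.0, 61.7 and 28.5 CPM in WT against 19.2, 23.6 and 17.1 CPM in KO (−1.12, SE 0.28, adjusted p = 0.133 with edgeR and 0.00388 with DESeq2).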

How the data were processed

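The submitters describe TRIzol extraction and a TruSeq Stranded mRNA kit, per the labels' protocols. Trimmomatic, HISAT2, Cufflinks, HTSeq and the build mm10 are listed in their processing notes. No version, annotation release or strand setting of the counting is stated there. The authors deposited raw read counts per gene, not normalised, 1 column per library.

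The groups (3 WT, 3 KO) were compared with edgeR 4.0.16 (R 4.3.3): genes kept by filterByExpr at a minimum count of 10, TMM scaling, glmQLFit and glmQLFTest with the genotype alone, and Benjamini-Hochberg adjustment over 19687 genes. The standard error is the change divided by the square root of F, and 95% intervals use the total degrees of freedom. DESeq2 1.42.0 and other fits were alternatives. The procedure was tested on simulated data in which no library stood apart, so that test does not cover a library like WT replicate 1. Exon lengths and overlaps come from GENCODE M21 on the same build, and upstream sequences from RefSeq. Totals of 18409409 to 23323953 counts make 3 counts, the limit for a count of 0, worth 0.130 to 0.167 CPM, as counting error only.

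The genes and lists were chosen with earlier results of these data known. The named genes are those called with edgeR, with DESeq2 or without 1 library, the 3 with the highest level per kilobase and the 1 with the largest change in each role. Ptprb and Cnn1 are given in each library outside that rule. Others are given by means or ranges, and from further lists those called with edgeR or DESeq2, up to 4 a list. Srf, Myocd, Acta1, Tpm2, Synpo2, Actg2 and Myl9 were chosen after their values were seen. The result of 1 further marker list is not reported here.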

Additional observations from a re-analysis of the deposited data

How the results depend on the processing

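Over the 14 alternative fits, 22 of the 34 genes kept the sign of their change in each, and the 12 that did not had changes of at most 0.26 in size (Slco1a4, Pecam1, Kdr, Cspg4 and others with intervals spanning 0). The number of genes called in the whole table, 78 with the design used, was 1505 with DESeq2, 1 with the replicate number as a block, 0 with a term for libraries that held Xist (3282 genes at an unadjusted p under 0.05), and 0 to 1814 without 1 library. It was 1814 without WT replicate 1, 760 without WT replicate 2, and 0 without WT replicate 3 or any KO library (2087 to 3364 genes at an unadjusted p under 0.05). Of the 34 vascular genes 0 were called with the design used, 1 (Vwf) without a filter on low counts, 8 with DESeq2, and 0 to 9 without 1 library, 9 of them without WT replicate 1 and 4 without WT replicate 2. With the replicate block 0 were called, with 10 at an unadjusted p under 0.05. Deviations from the group mean in libraries of the same number had correlations of −0.13, −0.32 and −0.19 for numbers 1 to 3, across genes. With 3 libraries per group such correlations depend on one another and cannot exclude a pairing. The labels do not say what the numbers stand for, so pairing is unknown. The median of the smooth muscle genes ranged from −2.10 to −0.59 without 1 library, and the latter, without WT replicate 1, was the only median of a role that moved beyond the spread between replicates. Scaling by RLE or the upper quartile moved the median of all genes by less than 0.1.
The alternative without Des, and all alternatives for genes outside the 34, were added after seeing the data.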
